A study of Mus musculus with 31 samples.

Results

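The genes described are 35 genes of the extracellular matrix that were measured in cultured mouse peritoneal macrophages. They are collagens, laminins, ADAMTS proteases, fibulins, the collagen chaperone gene Serpinh1 and 12 singly named genes such as Fn1, Sparc and Dcn. The deposited table has 91 gene symbols of these families, and the 35 that reached 0.5 FPKM (a fragment count scaled to transcript length and to the library total) in 3 or more libraries were kept. Of the other 56, 5 were listed at 0 in every library.

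Mice of the C57BL/6 background were 8.5 weeks old and either control mice or mice with the genotype label PPARgammaMPKO, called KO below, a deletion of PPARγ in macrophages. The labels do not name the Cre driver. Each mouse received 3% thioglycollate in the peritoneal cavity, and the elicited cells were taken at day 4 and kept overnight in culture, in all groups alike. The cells were then left untreated, or were given DMSO (the vehicle), 1 uM rosiglitazone (a synthetic PPARγ agonist) or 20 ng/mL IL4 (a cytokine that drives alternative activation of macrophages) for 24 h. For untreated cells no such time was recorded in the sample labels used here. The series names 4 mice of each genotype, and the 31 libraries of total RNA make 8 groups of 4, except for 3 libraries of KO cells with rosiglitazone.

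The extracellular matrix is the protein scaffold around cells. Fibrillar collagens form ropes that are folded with the help of the chaperone HSP47 (Serpinh1) and cross-linked by lysyl oxidases, while type IV collagens, laminins and nidogens form the basement membrane sheet under epithelial and mesothelial layers. Fibroblasts and mesothelial cells are the usual makers of fibrillar collagen in the peritoneum, whereas macrophages are known to make some matrix proteins themselves, fibronectin among them. The values below were set against this background by asking which matrix genes follow Col1a2 from library to library.

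Values are FPKM divided by a factor per library, the median ratio of its genes to their geometric means over all libraries, and are called rescaled FPKM. The deposited FPKM summed to between 150719 and 305601 per library. The lowest sums, 166172 and less, belonged to KO untreated libraries 2 and 3 and to control IL4 library 2, against 221837 or more elsewhere. The files and labels used here hold no read totals, so no counting interval was computed. The labels number the libraries 1 to 4 within a group without saying that a number is a mouse. Libraries carrying the same number in different treatments of a genotype mostly deviated together from their groups. Of the 28 libraries outside KO rosiglitazone, 25 matched best with libraries of their own number. The 3 KO rosiglitazone libraries each resembled the KO libraries whose number was 1 higher, and the control untreated library numbered 2 did not resemble its namesakes, with correlations down to -0.17. With the KO rosiglitazone numbers moved up by 1, the number accounted for a median of 80.2% of the within-group spread of the 35 genes and 60.3% of that of all genes tested. Pparg itself had 36.9 to 50.7 rescaled FPKM in KO untreated libraries against 47.1 to 53.7 in control untreated libraries, and all its libraries lay between 30.2 and 130.2. A sum over the whole gene need not fall when only some exons are deleted, so it does not check the genotype. The 9 macrophage markers in the table, Cd68 and Csf1r among them, summed to 1060 to 1470 in each library, so the labelled cell type was present throughout.

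Col1a2, which encodes the α2 chain of type I collagen, ranged over 4.86 to 37.9 rescaled FPKM in KO libraries and 0.431 to 11.9 in control libraries. In untreated cells it had 22.9, 13.7, 31.4 and 4.86 rescaled FPKM in KO libraries 1 to 4, against 11.9, 1.01, 0.431 and 2.50 in control libraries 1 to 4. With DMSO the values were 25.1, 29.6, 16.5 and 5.78 in KO and 9.95, 5.74, 0.569 and 4.37 in control libraries. The control library numbered 3 was the lowest and KO library 4 the lowest of its genotype, and control library 1 lay above KO library 4, so the groups overlapped in both settings. With rosiglitazone Col1a2 had 24.8, 20.7 and 6.47 in KO libraries 1 to 3, against 10.8, 3.07, 0.524 and 5.87 in control libraries. With IL4 it had 21.3, 37.9, 16.4 and 7.16 in KO and 10.3, 5.31, 0.555 and 5.20 in control libraries. The same order of control numbers, 1 highest and 3 lowest, came back in all 4 treatments. Means on the log2 scale differed by 2.52 in untreated cells, 1.98 with DMSO, 1.95 with rosiglitazone and 2.04 with IL4, KO minus control. None passed a two-sided exact permutation test (p = 0.0571, 0.0571, 0.114 and 0.0571 in that order of treatments, n = 4 against 4, or 3 against 4 with rosiglitazone), whose smallest possible p is 0.0286. Averaged per number without rosiglitazone, treating a number as a mouse, the difference was 2.18, a 4.53-fold ratio, with an exact permutation p of 0.0571 and an adjusted p over these 5 tests of 0.0714. In bulk samples such as these, fewer cells of a type and less RNA per cell cannot be told apart.

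**Figure D1:**
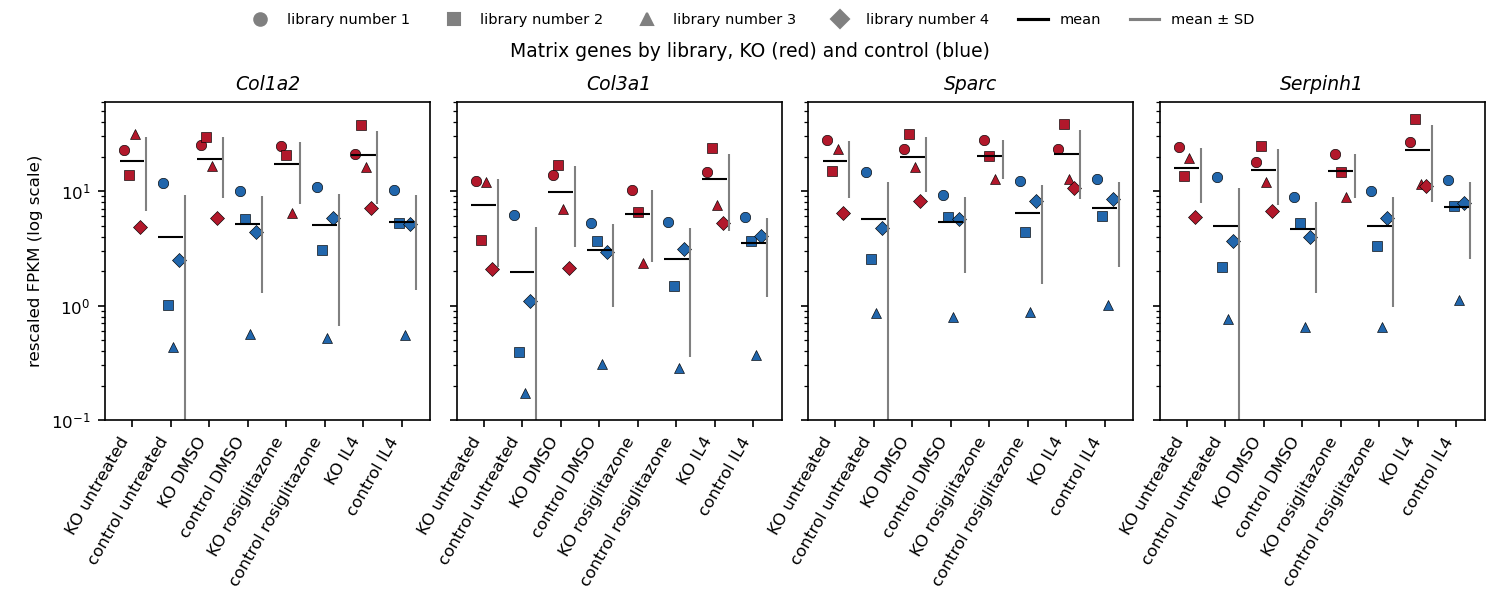
Rescaled FPKM (log scale) of Col1a2, Col3a1, Sparc and Serpinh1 in each of 31 libraries, KO in red and control in blue, with symbols for the library number, a black line for the group mean and a grey bar for mean ± SD (bars that reach the bottom edge go below the axis). Control libraries numbered 3 are the lowest of their group for all 4 genes, with Col1a2 between 0.431 and 0.569, and KO libraries numbered 4 are the lowest of theirs in most panels.

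All 6 fibrillar collagen genes were lowest in the control library numbered 3 in each treatment. Col3a1 (type III collagen) had 12.2, 3.77, 11.9 and 2.06 rescaled FPKM in KO untreated and 6.23, 0.392, 0.174 and 1.10 in control untreated libraries. In IL4-treated cells Col3a1 had 14.8, 23.8, 7.59 and 5.21 in KO and 5.92, 3.63, 0.373 and 4.03 in control libraries. As for Col1a2, the highest control library, number 1, lay above the lowest KO library. Over all treatments Col1a1, the α1 chain of type I collagen, had 1.10 to 18.1 in KO libraries and 0.126 to 4.02 in control libraries. Col5a1 and Col5a2, chains of the type V collagen that nucleates fibrils, had 0.190 to 2.52 in KO libraries and 0.0334 to 0.638 in control libraries, and 0.455 to 4.60 in KO libraries and 0.0400 to 1.28 in control libraries. Col24a1, a minor fibrillar collagen, barely reached the floor, with 0.0521 to 0.698 in KO libraries and 0 to 0.152 in control libraries. KO minus control differences in untreated cells were 2.23 ± 0.76 for Col1a1, 2.01 ± 0.80 for Col3a1 and 1.47 ± 0.55 for Col5a2 (log2 ± SE), with limma adjusted p of 0.103, 0.171 and 0.144, so none passed. The 3 genes of the 6 with the highest levels moved together from library to library, and the promoters of a pair of them are shown to let their start regions be compared.

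The following are the 150 bases before the transcription start of Col1a2 (chr6:4505468-4505617, plus strand) and of Col3a1 (chr1:45311388-45311537, plus strand), from RefSeq on GRCm38.p6, whereas the deposited values were made on mm9. Capitals mark the searched motifs that a script found on either strand.
Col1a2: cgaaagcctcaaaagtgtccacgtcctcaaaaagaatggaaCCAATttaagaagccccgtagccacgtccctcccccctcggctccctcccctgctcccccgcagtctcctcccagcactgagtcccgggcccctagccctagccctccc
Col3a1: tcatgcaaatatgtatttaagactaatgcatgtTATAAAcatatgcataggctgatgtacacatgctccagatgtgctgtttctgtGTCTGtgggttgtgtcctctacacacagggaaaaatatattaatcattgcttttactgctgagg
The letters CCAAT begin 109 bases before the Col1a2 start, and TATAAA begins 117 bases before the Col3a1 start, where CAGAC also occurs on the other strand 64 bases before it. In windows of 250 bases before the start, CCAAT occurred in 30.4% of the 23 members with a promoter in the table and in 34.5% of all 27025 promoters, and TATAAA in 8.7% and 13.0%. The letters GGGCGG occurred in 65.2% of members and 32.9% of all promoters, TGANTCA in 4.35% and 6.87%, and CAGAC in 43.5% and 42.1%, each on both strands. These matches describe letters in a window and not bound sites.

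Genes for collagen folding and cross-linking were Serpinh1 and Loxl1, which followed Col1a2, and Lox, which followed it less closely and separated the genotypes. Serpinh1, the collagen chaperone, had 24.1, 13.7, 19.3 and 5.92 rescaled FPKM in KO untreated libraries against 13.3, 2.18, 0.756 and 3.69 in control untreated libraries. Loxl1, a lysyl oxidase that acts on elastin, had 1.27, 0.628, 1.05 and 0.353 in KO and 0.452, 0.0992, 0.0374 and 0.125 in control untreated libraries. Both had their lowest value in control library 3, and control library 1 overlapped the KO range. Loxl1 rose in untreated KO cells by 0.95 ± 0.27 on the log2 scale (limma adjusted p = 0.0379), and Serpinh1 differed by 1.96 ± 0.74 without passing (adjusted p = 0.149). Loxl1 too reached the floor of 0.5 FPKM in no control library and was tested only because its KO libraries were high.

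Lox, the lysyl oxidase that cross-links collagen and elastin, was higher in every KO library than in every control library, over all treatments, at 0.487 to 2.13 in KO libraries and 0.0690 to 0.475 in control libraries. It was the only 1 of the 35 genes with no overlap of the genotypes over the 31 libraries, against 0.213% of the 11261 genes tested. This separation and the tests of Lox are not independent of the filter, since no control library reached 0.5 FPKM and the gene was tested only because its KO libraries were high. Untreated KO libraries 1 to 4 had 1.56, 0.487, 1.83 and 0.511 rescaled FPKM of Lox, against 0.475, 0.173, 0.124 and 0.254 in untreated control libraries. With IL4 it had 2.04, 2.13, 1.49 and 0.768 in KO and 0.399, 0.301, 0.108 and 0.327 in control libraries. KO library 2 was highest and KO library 4 lowest in the IL4 group, and that lowest KO value was above the highest control value. Lox differed by 0.99 ± 0.28 in untreated cells (limma adjusted p = 0.0368), 1.10 ± 0.30 with rosiglitazone (adjusted p = 0.0136) and 1.39 ± 0.28 with IL4 (adjusted p = 0.000851). With DMSO the difference was 0.92 ± 0.28 and did not pass (adjusted p = 0.0636). Its exons overlap an antisense gene, and the sources used here do not say whether reads were counted by strand.

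Basement membrane genes were low, mostly around 1 rescaled FPKM or less, with Lamc1 as the exception. The type IV chains Col4a1, Col4a2 and Col4a5 had 0.599 to 4.97 in KO libraries and 0.133 to 1.31 in control libraries, then 0.228 to 1.96 in KO libraries and 0.0430 to 0.553 in control libraries, then 0.186 to 1.79 in KO libraries and 0.0218 to 0.537 in control libraries. Col18a1, which carries endostatin at its end, had 0.206 to 1.21 in KO libraries and 0.0309 to 0.349 in control libraries. The laminin chain genes Lama4, Lamb1 and Lamb2 had 0.225 to 1.73 in KO libraries and 0.0258 to 0.527 in control libraries, then 0.252 to 1.98 in KO libraries and 0.0154 to 0.730 in control libraries, then 0.195 to 0.873 in KO libraries and 0.0444 to 0.406 in control libraries. In each of these genes the KO range reached above the highest control library and the ranges overlapped. Nid1 and Nid2, nidogens that bridge laminin and type IV collagen, had 0.135 to 1.74 in KO libraries and 0.0196 to 0.405 in control libraries, and 0.0861 to 1.14 in KO libraries and 0.0192 to 0.520 in control libraries. Nid1 was called higher in KO cells, by 0.99 ± 0.28 untreated (limma adjusted p = 0.0361) and 0.98 ± 0.30 with rosiglitazone (adjusted p = 0.0295). No control library reached the floor of 0.5 FPKM for Nid1, so it was tested only because its KO libraries were high. Lama4 was called higher with IL4, by 1.00 ± 0.32 (adjusted p = 0.0421). Only 1 or 2 control libraries reached the floor for Lama4, so it too was kept only through its KO libraries. Lamc1, the laminin γ1 chain common to most laminins, had 4.57, 5.14, 11.1 and 4.44 in KO untreated and 3.80, 2.98, 3.52 and 3.69 in control untreated libraries. Its control libraries lay close together, and KO library 3 stood far above the rest. The groups did not overlap, but the difference of 0.67 ± 0.25 did not pass (adjusted p = 0.142).

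Among proteoglycans and glycoproteins, Sparc, Dcn, Bgn, Fbln2 and Fbn1 followed Col1a2. Sparc, a collagen-binding matricellular protein, had 27.8, 15.0, 23.3 and 6.47 rescaled FPKM in KO untreated and 14.7, 2.56, 0.863 and 4.74 in control untreated libraries. Dcn, which encodes the proteoglycan decorin that coats collagen fibrils, had 34.7, 12.5, 13.6 and 8.24 in KO and 15.2, 4.35, 0.860 and 3.70 in control untreated libraries. Untreated control library 1 was again within the KO range for both genes, and control library 3 was the lowest of all. Bgn (biglycan, a proteoglycan related to decorin) had 2.22, 3.27, 1.61 and 1.05 with IL4 in KO cells and 0.915, 0.519, 0.0771 and 0.683 in control cells, with no overlap, and rose by 1.27 ± 0.41 (limma adjusted p = 0.0448). Over all libraries Fbln2 (fibulin 2) had 0.733 to 9.91 in KO libraries and 0.0797 to 2.39 in control libraries, and Fbn1 (fibrillin 1, of microfibrils) had 0.121 to 2.11 in KO libraries and 0.0315 to 0.606 in control libraries. Lum, the proteoglycan lumican, was near the floor at 0 to 1.13 in KO libraries and 0 to 0.381 in control libraries. Mgp, the matrix Gla protein that inhibits calcification, had 4.05, 2.33, 5.82 and 1.66 in KO untreated and 2.00, 0.507, 0.156 and 0.379 in control untreated libraries. It rose in untreated KO cells by 1.73 ± 0.47 (adjusted p = 0.0339), although control library 1 overlapped the KO range.

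The 3 kept ADAMTS proteases differed among themselves. Adamts1, which cleaves proteoglycans such as versican, had 0.575 to 1.41 in KO libraries and 0.249 to 1.09 in control libraries over all treatments. Adamts9, which also cleaves versican, had 0.107 to 1.36 in KO libraries and 0.00517 to 0.421 in control libraries. Adamts10, known for its role in fibrillin microfibrils, had 1.15, 1.57, 3.31 and 1.56 in KO untreated and 1.76, 1.59, 1.83 and 1.72 in control untreated libraries. Its control values were nearly level, and KO library 3 was the highest and KO library 1 the lowest. None of the 3 passed between genotypes in any treatment, with limma adjusted p of 0.281 or more for Adamts1, 0.177 or more for Adamts9 and 0.216 or more for Adamts10.

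Over the 35 genes, few passed between KO and control cells although nearly all differences pointed the same way. A gene was called at a limma adjusted p under 0.05 over the 11261 genes tested (n = 4 libraries a group, and 3 for KO cells with rosiglitazone). In untreated cells 4 of 35 were called higher in KO (Mgp, Nid1, Lox and Loxl1) and 0 lower, where 1.73% of all genes were called higher and 2.44% lower. All 35 differences were positive, 30 had an unadjusted p under 0.05, and the median was 0.98 on the log2 scale against -0.0017 over all genes. With DMSO 0 of 35 were called (20 at an unadjusted p under 0.05), against 1.25% of all genes higher and 2.08% lower. With rosiglitazone 2 were called higher (Lox and Nid1) against 4.92% of all genes, and 0 lower against 6.4%. In IL4-treated cells 6 were called higher against 4.87% of all genes, and 0 lower against 5.67%. They were Lox, Col6a5, Col6a2, Lama4, Bgn and Col24a1, the last with a difference of 0.59 ± 0.19 (adjusted p = 0.0482). The medians with DMSO, rosiglitazone and IL4 were 0.85, 0.85 and 0.91. Libraries of the genotypes did not overlap, KO being higher, for 2 of the 35 genes untreated, 3 with DMSO, 6 with rosiglitazone and 6 with IL4, against 3.87%, 3.97%, 8.68% and 7.54% of all genes. The fit treats the 31 libraries as independent, although a mouse gave several. The choice of floor bears on these counts, since 8 of the 35 genes reached 0.5 FPKM in no control library (Adamts9, Col18a1, Col24a1, Lamb2, Lox, Loxl1, Lum and Nid1) and so had to be higher in KO libraries to be kept. They made up 3 of the 4 genes called in untreated cells, both genes called with rosiglitazone and 2 of the 6 called with IL4. Another 6 (Col4a2, Col4a5, Col5a1, Lama4, Nid2 and Postn) reached it in only 1 or 2 control libraries and were kept only through their KO libraries. Of these Lama4 was called, with IL4. In untreated cells the count came to 0 without control library 2, 3 or 4 or without KO library 1 or 3, to 2 without KO library 2, to 16 without control library 1 and to 15 without KO library 4. With IL4 it came to 3 without control library 2, 1 without control library 3, 2 without KO library 1 and 1 without KO library 2. With rosiglitazone it came to 4 without control library 1, 7 without KO library 3 and 1 without any of the others, and with DMSO to 5 without KO library 4. The shares of all genes called without each library are not given here.

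The 35 genes split by how they followed Col1a2 within groups. For each gene, deviations from the group means of log2 values were correlated with those of Col1a2 over the 31 libraries. These correlations are descriptions, since several libraries come from the same mouse. Of the 35 genes, 28 tracked Col1a2 at an r of 0.7 or more, counting Col1a2 itself, against 3.11% of the other 11226 genes tested (349). The highest were Col3a1 (0.98), Sparc (0.98), Serpinh1 (0.97), Col6a1 (0.97) and Bgn (0.96). They included all 6 fibrillar collagens, 9 of the 10 basement membrane genes, and Adamts1 and Adamts9. Between 0.3 and 0.7 lay Postn (0.67), Lox (0.67), Col6a5 (0.56), Fn1 (0.56), Lum (0.49) and Lamc1 (0.47). Only Adamts10 fell under 0.3, with an r of 0.095 (0.0496 by Spearman's rho). The median r was 0.87 over the 35 genes and -0.0081 over the others.

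**Figure D2:**
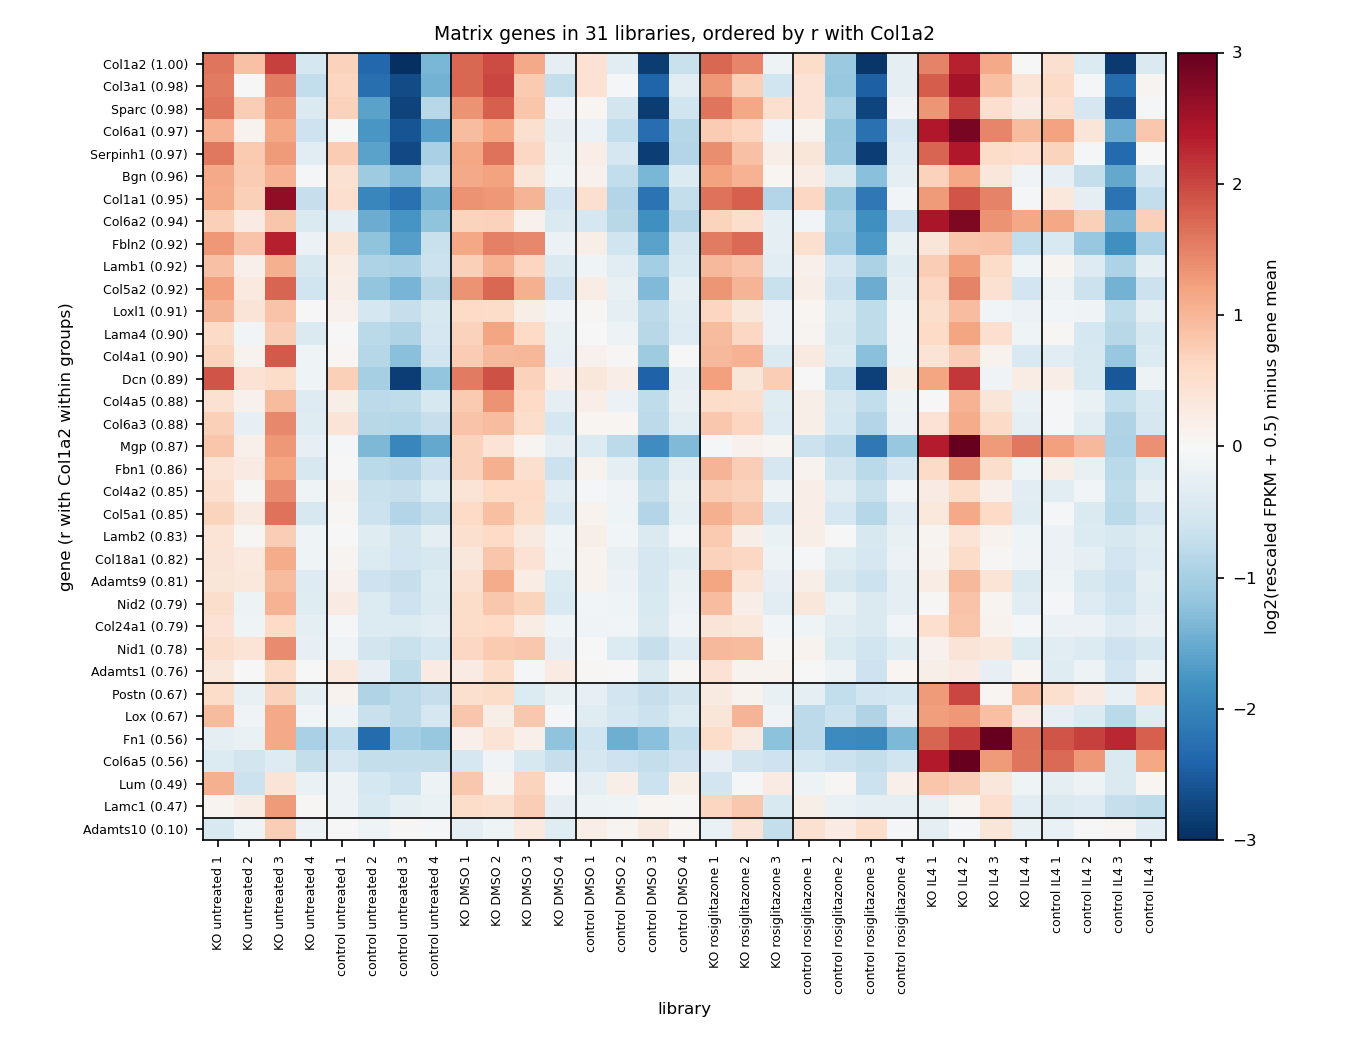
Log2(rescaled FPKM + 0.5) of 35 matrix genes minus the mean of each gene, in 31 libraries (columns, KO group before control group in each treatment), ordered from top to bottom by r with Col1a2 within groups (in brackets). Colours are capped at 3 in either direction, and lines separate groups and the classes at r of 0.7 and 0.3. Most rows show the same column pattern, with control libraries numbered 3 lowest of their group. In Fn1, Lamc1, Adamts10, Postn and Col4a5 they are not the lowest in every treatment.

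The control libraries numbered 1 and 3, which had the highest and lowest Col1a2, made the split visible on the level scale. This pair was chosen after its Col1a2 values were seen. Averaged over the 4 treatments, Col1a2 was 20.6-fold higher in number 1 than in number 3, Col1a1 25.7-fold, Col3a1 20.0-fold and Serpinh1 14.1-fold. The 3 genes with the smallest ratios were Adamts10 at 0.917, Fn1 at 0.924 and Lamc1 at 1.12. Fn1, which encodes fibronectin, averaged 29.1 rescaled FPKM in control number 1 and 31.5 in control number 3, and Lamc1 averaged 3.91 and 3.49. The ratio of Fn1 rested on IL4: without the IL4 libraries it averaged 12.7 in control number 1 and 7.92 in control number 3, a ratio of 1.6, and by treatment the ratio was 1.23 untreated, 1.59 with DMSO, 2.35 with rosiglitazone and 0.765 with IL4. Without IL4 the ratios of Adamts10 and Lamc1 were 0.948 and 1.09. In KO libraries those 2 genes were not level, since Lamc1 reached 11.1 and Adamts10 3.31 in single KO libraries. Lox at 2.73, Postn at 3.00 and Adamts1 at 2.29 followed, and every other gene had a ratio of 4.59 or more.

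**Figure D3:**
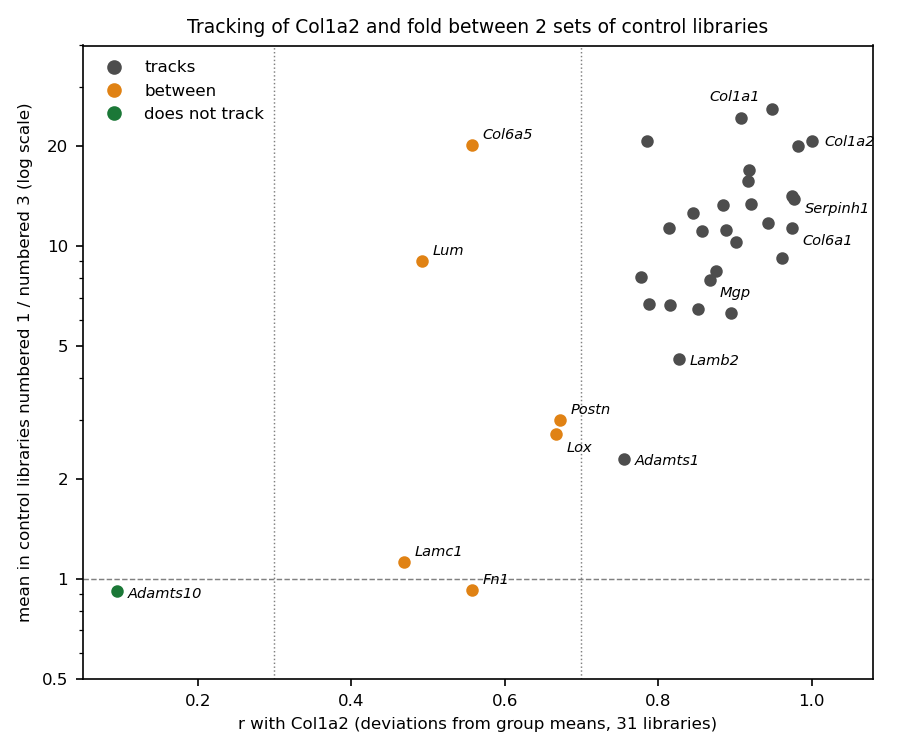
Each of 35 genes by its r with Col1a2 within groups (x axis, 31 libraries) and by its mean in control libraries numbered 1 over that in control libraries numbered 3 (y axis, log scale, 4 libraries each). Dotted lines mark r of 0.3 and 0.7, and the dashed line marks equal means, near which lie Fn1 at 0.924, Adamts10 at 0.917 and Lamc1 at 1.12 (Fn1 at 1.6 without the IL4 libraries), whereas Col1a1 lies at 25.7.

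Genes outside the set whose pattern was most like that of Col1a2, by the same r over 31 libraries, were Grb10 (0.98), Nedd4 (0.97), Fkbp10 (0.97), Pdgfra (0.97), Csf1 (0.96), Ccdc80 (0.96), Fscn1 (0.96), Tagln (0.95), Il1r1 (0.95) and Upk3b (0.95). Fkbp10 encodes a collagen chaperone, Pdgfra a receptor that marks fibroblasts and other mesenchymal cells, Tagln an actin-binding protein of smooth muscle cells and myofibroblasts, and Upk3b a mesothelial surface protein. These descriptions cover only some of the genes named, and which cells made their RNA was not tested. Pdgfra averaged 4.5 rescaled FPKM in KO untreated and 1.26 in control untreated libraries, Grb10 3.33 and 1.05, and Nedd4 6.8 and 2.38.

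Some markers of mesothelial, fibroblast and smooth muscle cells moved with Col1a2. Of 11 mesothelial markers in the table, 10 passed the floor and 6 of these tracked it, namely Upk3b, Upk1b, Lrrn4, Wt1, Bnc1 and Gpm6a, while Msln stayed below the floor with a highest value of 0.356. Summed mesothelial markers ranged over 7.79 to 16.3 rescaled FPKM in KO untreated and 1.63 to 9.11 in control untreated libraries. With DMSO they ranged over 7.27 to 23.6 in KO and 1.12 to 6.99 in control libraries, with rosiglitazone over 9.37 to 19.0 and 1.09 to 8.9, and with IL4 over 11.7 to 47.8 and 2.62 to 12.7. The ranges overlapped untreated and with IL4, and did not with DMSO or rosiglitazone. No share over all genes was computed for such sums. By limma 1 of the 10 tested markers was called higher in KO cells untreated, 0 with DMSO, 0 with rosiglitazone and 2 with IL4. They were Krt18, and with IL4 also Krt8. Of all genes, 1.73%, 1.25%, 4.92% and 4.87% were called higher in that order of treatments. Of 13 fibroblast markers 1 passed the floor, Pdgfra, and Clec3b and Mfap4 were listed at 0 in every library. Their sums ranged over 1.62 to 8.58 in KO untreated and 0.275 to 4.32 in control untreated libraries, and over 2.63 to 11.6 with IL4 in KO and 0.252 to 2.83 in control cells. The 3 smooth muscle markers above the floor, Acta2, Tagln and Des, all tracked Col1a2 (r = 0.95, 0.95 and 0.92), whereas Myh11 and Cnn1 had at most 0.0353 and 0.0788. None of the 9 general macrophage markers tracked it (0), and their median r was -0.37. On a separate list, for the large macrophages that reside in the peritoneum, Gata6 (r = 0.925) and Serpinb2 (r = 0.772) did track it. Cd93, Vsig4 and Icam2, the rest of that list above the floor, did not track Col1a2 (r = 0.0195, -0.36 and -0.523). Of the 10 endothelial markers 2 passed the floor and 0 tracked it, and Cldn5 and Sox17 were listed at 0 in every library. Among adipocyte, neutrophil, eosinophil, mast cell and B cell markers, 1 or 2 of each list were tested and 0 tracked it. The part of such cells in the genotype differences was not tested.

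When the Col1a2 level of each library was added to the model as a covariate, a choice made after the data were seen, little genotype difference was left in the 34 other genes. Their median difference was 0.085 in untreated cells, 0.13 with DMSO, 0.12 with rosiglitazone and 0.098 with IL4 (log2, KO minus control). Called genes numbered 0, 0, 0 and 1 in these treatments, against 2.42%, 2.87%, 11.1% and 8.59% of the 11260 other genes called in either direction. The 1 gene was Lox with IL4, which differed by 0.95 ± 0.23 (limma adjusted p = 0.00734). Most of the 34 genes had tracked Col1a2, so their differences had to shrink in this model, and Col1a2 itself could not be fitted.

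**Figure D4:**
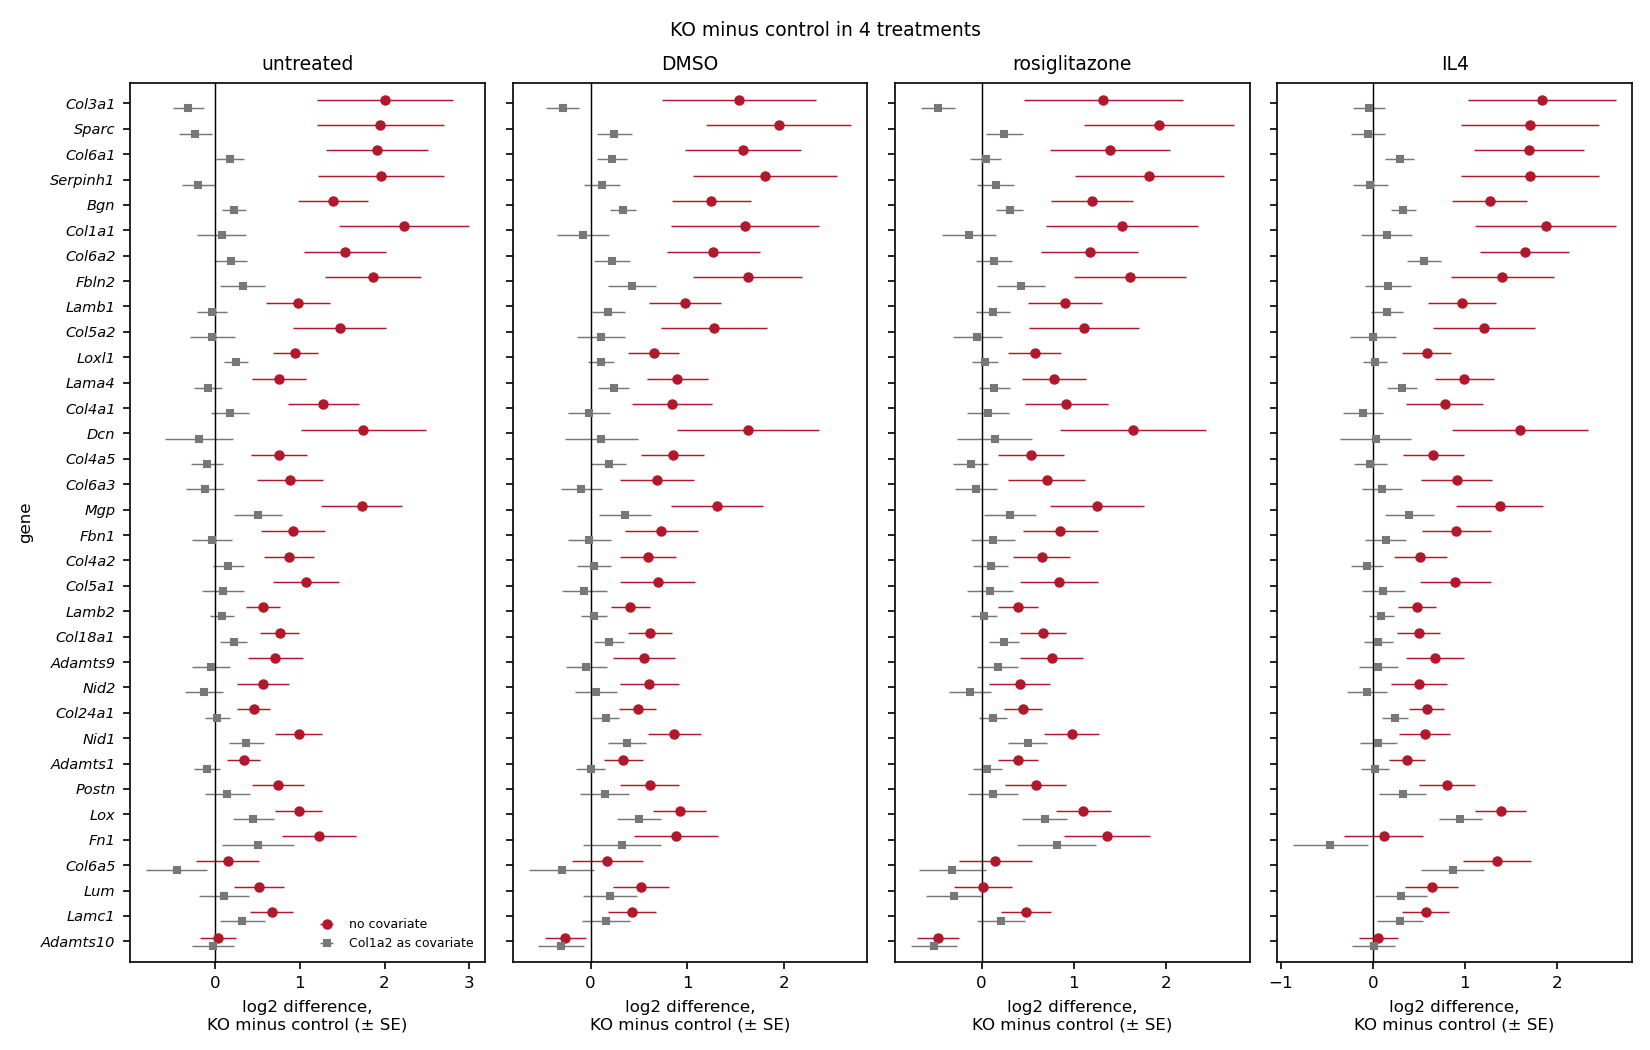
Log2 difference of 34 matrix genes, KO minus control, in each of 4 treatments (error bars, SE), without a covariate (red circles) and with the Col1a2 level of each library as a covariate (grey squares). Red points lie mostly right of 0, with a median over 35 genes of 0.98 in untreated cells, and grey points near 0, with a median of 0.085, while Lox with IL4 stays at 0.95.

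With IL4, Fn1, Mgp and the type VI collagen genes Col6a5 and Col6a2 rose in both genotypes. Type VI collagen forms beaded filaments around cells, from an α1, an α2 and a further chain such as α3 or α5, and fibronectin is an adhesive glycoprotein that integrins bind. Against untreated cells, 5 of 35 genes rose in KO cells, with 9.73% of all genes called higher, and 5 of 35 rose in control cells, with 11.3% of all genes called higher. In this fit 0 of the 35 fell in either genotype (8.85% of all genes in KO and 10.2% in control cells were called lower). In a fit blocked by library number, with KO rosiglitazone libraries numbered 1 higher, Fbln2, Nid1 and Lamc1 were called lower in KO cells, with differences of -0.75, -0.42 and -0.40 (limma adjusted p = 0.00248, 0.0122 and 0.0315), and with the numbers as titled 0 were. The 2 comparisons share no libraries, and 4 of their genes were in both, namely Fn1, Col6a5, Col6a2 and Mgp. Postn was the other in KO cells and Col6a1 the other in control cells. IL4 libraries all lay above untreated ones for 3 of the 35 genes in KO cells and 2 in control cells, against 9.23% and 15.3% of all genes.

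Fn1 had 71.9, 91.5, 170.2 and 65.5 rescaled FPKM in KO libraries with IL4, against 17.4, 18.2, 46.7 and 10.5 in KO untreated libraries. In control cells it had 78.4, 89.1, 102 and 73.7 with IL4 against 12.5, 3.81, 10.1 and 9.32 untreated. IL4 and untreated groups did not overlap in either genotype, and control library 3, with almost no Col1a2, had the highest control value with IL4. Fn1 rose by 2.19 ± 0.43 in KO cells (limma adjusted p = 0.000475) and by 3.29 ± 0.43 in control cells (adjusted p = 1.7e-06). KO and control cells with IL4 did not differ in Fn1 beyond their spread (0.12 ± 0.43, adjusted p = 0.946). Its mean ± SD with IL4 was 99.8 ± 48.3 in KO and 85.9 ± 12.8 in control libraries (n = 4 each). The exons of Fn1 overlap those of Apol7d on the other strand.

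Col6a5, the α5 chain of type VI collagen, was close to 0 without IL4. It had 3.81, 11.5, 1.50 and 2.03 rescaled FPKM in KO libraries with IL4, against 0.116, 0.0668, 0.133 and 0.00666 in KO untreated libraries. In control cells it had 2.18, 1.52, 0.109 and 1.35 with IL4 against 0.0790, 0.00594, 0 and 0 untreated. No IL4 library overlapped the untreated ones, and control IL4 library 3, the library with the least Col1a2 in that group, was by far the lowest of its group. It rose by 2.80 ± 0.37 in KO cells (limma adjusted p = 1.79e-06) and 1.59 ± 0.37 in control cells (adjusted p = 0.00202), and with IL4 it was higher in KO than control cells by 1.35 ± 0.37 (adjusted p = 0.0147). The difference between the genotypes in the response itself was 1.2 and did not pass (adjusted p = 0.843). Col6a5 reached the floor of 0.5 FPKM in 7 libraries, all with IL4, and had at most 0.27 rescaled FPKM without IL4. It was tested only because its IL4 libraries were high. Its rise with IL4 and its separation from untreated libraries are therefore not independent of the filter.

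Col6a2, the α2 chain, had 11.7, 14.9, 5.15 and 4.45 in KO libraries with IL4 against 3.16, 2.12, 3.42 and 1.15 untreated. In control libraries it had 4.46, 3.17, 0.334 and 3.12 with IL4 against 1.30, 0.296, 0.151 and 0.457 untreated. The groups did not overlap in KO cells and did in control cells, where IL4 library 3 was low. Col6a2 rose by 1.60 ± 0.48 in KO cells (limma adjusted p = 0.0188) and 1.49 ± 0.48 in control cells (adjusted p = 0.0264), and it was higher in KO than control cells with IL4 by 1.65 ± 0.48 (adjusted p = 0.0252). Col6a1, the α1 chain, had 20.0, 27.2, 10.1 and 6.92 in KO libraries with IL4 against 7.47, 3.65, 8.05 and 1.99 untreated, and 8.32, 4.45, 0.869 and 6.25 in control libraries with IL4 against 3.30, 0.645, 0.141 and 0.752 untreated. It rose by 1.71 ± 0.60 in control cells (adjusted p = 0.0415), and in KO cells its difference of 1.50 ± 0.60 did not pass (adjusted p = 0.0859), although it did in that blocked fit (adjusted p = 4.9e-05). Col6a3, the chain that most often joins α1 and α2, did not pass, with differences of 0.07 ± 0.39 in KO cells (adjusted p = 0.937) and 0.05 ± 0.39 in control cells (adjusted p = 0.961).

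The promoters of the type VI genes that IL4 raised are shown because these genes moved together with the cytokine. The lines give the 150 bases before the start from RefSeq on GRCm38.p6, for Col6a1 (chr10:76726045-76726194, minus strand), the first of the pair of Col6a2 windows in the table (chr10:76623405-76623554, minus strand) and Col6a5 (chr9:105960644-105960793, minus strand), with motif matches in capitals.
Col6a1: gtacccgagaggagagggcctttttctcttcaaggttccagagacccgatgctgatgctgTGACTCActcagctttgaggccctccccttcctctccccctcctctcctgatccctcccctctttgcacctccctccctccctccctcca
Col6a2: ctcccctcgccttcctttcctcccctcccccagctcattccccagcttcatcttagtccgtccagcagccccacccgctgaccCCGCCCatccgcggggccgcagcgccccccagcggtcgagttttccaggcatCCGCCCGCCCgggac
Col6a5: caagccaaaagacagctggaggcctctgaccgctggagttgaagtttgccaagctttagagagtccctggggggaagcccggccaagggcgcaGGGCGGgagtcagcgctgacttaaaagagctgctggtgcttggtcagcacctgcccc
TGANTCA begins 90 bases before the Col6a1 start, GGGCGG occurs on the other strand 67, 15 and 11 bases before the Col6a2 start, and GGGCGG begins 57 bases before the Col6a5 start. The letters TTC and GAA with 4 bases between them, a palindrome bound by STAT6, the factor that IL4 activates, were searched after the data were seen. They were in 4.35% of the 23 members' windows, in Bgn alone, and in 5.86% of all promoters.

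Mgp had 12.5, 19.6, 5.67 and 7.09 rescaled FPKM in KO libraries with IL4 against 4.05, 2.33, 5.82 and 1.66 untreated. In control libraries it had 5.47, 4.50, 0.846 and 6.11 with IL4 against 2.00, 0.507, 0.156 and 0.379 untreated. It rose by 1.53 ± 0.47 in KO cells (limma adjusted p = 0.0228) and 1.88 ± 0.47 in control cells (adjusted p = 0.00458), with control IL4 library 3 lowest and KO untreated library 3 within the KO IL4 range. Postn, which encodes periostin, a matricellular protein known as an IL4 and IL13 target in airway epithelium, had 1.90, 3.51, 0.542 and 1.34 in KO libraries with IL4 against 0.958, 0.347, 1.11 and 0.317 untreated. In control libraries Postn had 0.898, 0.672, 0.351 and 0.904 with IL4 against 0.568, 0.0353, 0.0797 and 0.121 untreated. It rose in KO cells by 0.88 ± 0.30 (adjusted p = 0.0446), and in control cells the difference of 0.81 ± 0.30 did not pass (adjusted p = 0.0576). The groups overlapped in both genotypes.

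**Figure D5:**
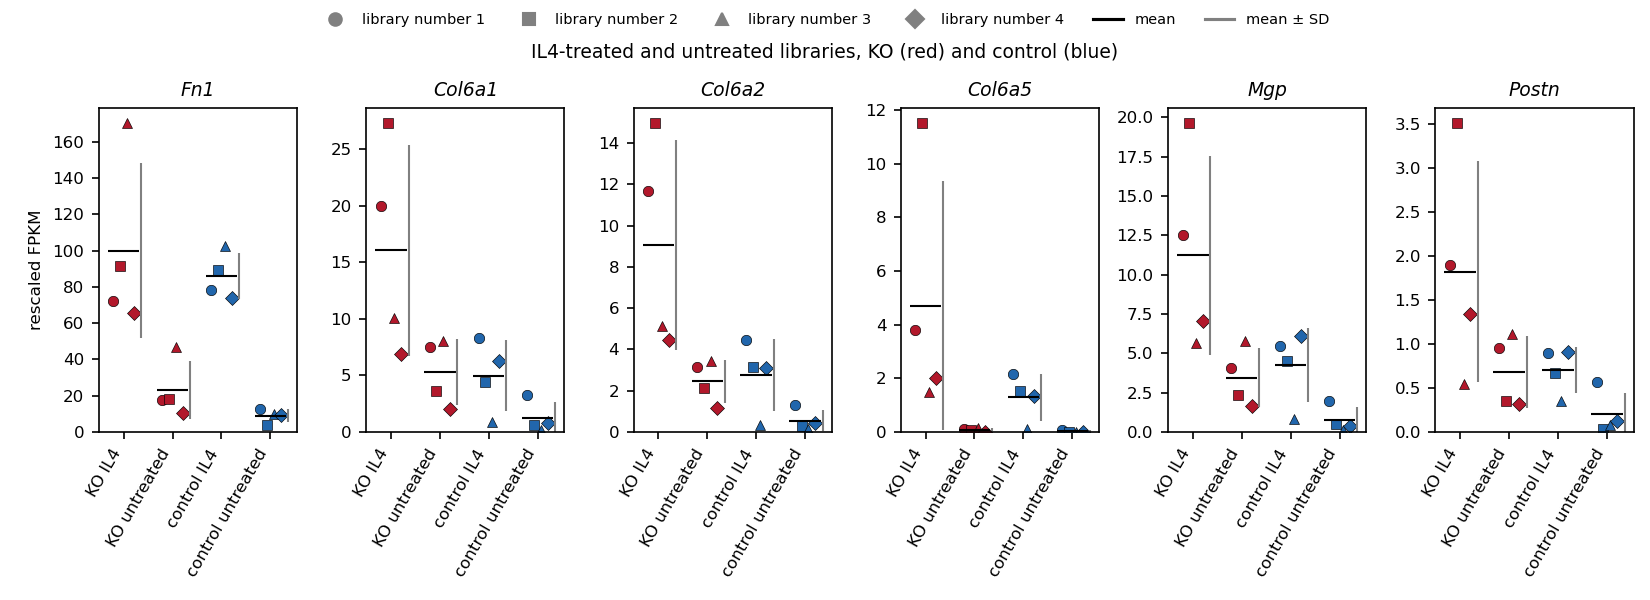
Rescaled FPKM of Fn1, Col6a1, Col6a2, Col6a5, Mgp and Postn in IL4-treated and untreated libraries of KO (red) and control (blue) cells, with symbols for the library number, a black line for the mean and a grey bar for mean ± SD. Fn1 lies between 65.5 and 170.2 with IL4 and at most at 46.7 without, whereas the other genes vary more widely among IL4 libraries and the control library numbered 3 is low in each.

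Single libraries carried part of these IL4 calls. The count in KO cells came to 3 without untreated library 2 and to 2 without untreated library 4, IL4 library 1 or IL4 library 2. The count in control cells came to 3 without untreated library 2, 3 or 4 or IL4 library 1, 2 or 4. Fn1 and Col6a5 kept their calls in both genotypes, and Mgp in control cells, under every alternative run. Col6a5 had passed the floor only through its IL4 libraries. With the Col1a2 level as a covariate, 7 genes rose in KO cells (Fn1, Col6a5, Col6a2, Mgp and Postn together with Col3a1 and Col6a1) and 1 fell, Fbln2 by 0.89 ± 0.23 (limma adjusted p = 0.00559). In control cells 5 rose and 2 fell, Fbln2 by 0.73 ± 0.23 (adjusted p = 0.0224) and Bgn by 0.41 ± 0.12 (adjusted p = 0.0172). In that model 20.2% of the other genes were called in KO and 21.5% in control cells, in either direction. In KO cells, where the numbers paired the IL4 and untreated libraries, the block by library number gave 6 higher and 0 lower as titled, and 7 higher and 3 lower with the KO rosiglitazone libraries numbered 1 higher. The shares of all genes called in these blocked fits are not given here.

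None of the 35 genes passed between rosiglitazone and DMSO. The count was 0 of 35 in KO cells, where 0% of all genes passed, and 0 of 35 in control cells, where 2.75% of all genes were called higher and 1.22% lower by limma. No member had an unadjusted p under 0.05 in either genotype (0 and 0), and the median differences were -0.041 in KO and -0.034 in control cells. DMSO against untreated cells gave 0 calls in KO and 0 in control cells, with 0% of all genes called, and 0 of the 35 had an unadjusted p under 0.05 in either. For the genotype difference in the rosiglitazone response 0 of the 35 genes passed (0.63% of all genes did), and in the IL4 response 0 passed (0.613% of all genes did). At an unadjusted p under 0.05 there were 0 and 1, namely Col6a5 in the IL4 response.

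Enzymes that modify and secrete collagen followed Col1a2 in part. Of 27 listed genes found among the deposited symbols, 21 were tested, and 8 of them tracked Col1a2 (median r of 0.565 over the 21), such as Fkbp10, Pcolce and Loxl2. P4hb, the abundant prolyl hydroxylase β subunit and disulfide isomerase at 158 to 346 rescaled FPKM, did not, with an r of 0.21. P4ha2, a catalytic subunit of that hydroxylase, was higher in KO cells in all 4 treatments, by 0.67 untreated, 0.90 with DMSO, 1.18 with rosiglitazone and 0.74 with IL4 (limma adjusted p = 0.0156, 0.000834, 1.91e-05 and 0.00267 in that order). It was the only 1 of the 21 called untreated or with DMSO, where 1.73% and 1.25% of all genes were called higher. With rosiglitazone 1 of the 21 was higher (4.92% of all genes) and 3 lower (6.4%). The 3 were Plod3, Plod1 and Colgalt1, which modify collagen lysines. With IL4 4 genes of 21 were higher (4.87% of all genes) and 2 lower (5.67%). IL4 against untreated cells gave 4 of 21 higher and 1 lower in each genotype, against 9.73% of all genes higher and 8.85% lower in KO cells and 11.3% and 10.2% in control cells: P4hb rose by 0.73 in KO and 0.80 in control cells (adjusted p = 2.02e-07 and 3.24e-08), and P3h3, a partner of collagen hydroxylases, fell by 1.06 and 0.80 (adjusted p = 1.64e-06 and 8.07e-05).

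Other matrix genes, matrix receptors and TGFβ signalling genes gave 1 to 4 calls a list between the genotypes in each treatment, to be read against 1.73% of all genes called higher and 2.44% lower untreated, 1.25% and 2.08% with DMSO, 4.92% and 6.4% with rosiglitazone and 4.87% and 5.67% with IL4. List medians in untreated cells were 0.42, 0.098 and 0.33, and 0.12 for the collagen enzymes, against -0.0017 over all genes (log2, KO minus control). Of 34 other matrix genes 16 were tested, and 1 was higher in untreated KO cells, Ecm1, at a mean of 17.3 against 10.9 rescaled FPKM in control cells (limma adjusted p = 0.0401). Ecm1 was also called with DMSO and IL4, and with IL4, where 4 of the 16 were higher, so were Vcan (versican), Thbs1 (thrombospondin 1) and Tgfbi. With rosiglitazone 1 was higher (Tgfbi) and 1 lower (Matn2). Spp1, which encodes osteopontin, was the most abundant of them at 439 to 931, and its r with Col1a2 was 0.46. It fell with IL4 in control cells by 0.64 (adjusted p = 0.00321). Against untreated cells IL4 called 2 of the 16 higher and 0 lower in KO cells, and 2 higher and 2 lower in control cells. Over all genes 9.73% were called higher and 8.85% lower in KO cells, and 11.3% and 10.2% in control cells. Of 26 receptors 19 were tested, and KO minus control calls were 1 higher untreated, 1 higher with DMSO, 3 higher and 1 lower with rosiglitazone and 2 higher and 1 lower with IL4. Sdc4, a syndecan that binds fibronectin, rose with IL4 by 1.01 in KO and 1.76 in control cells (adjusted p = 2.32e-07 and 3.98e-12), and Itgb8, an integrin chain, by 1.48 and 0.78 (adjusted p = 4.59e-10 and 2.23e-05). Itgb8 had a median of 0.24 rescaled FPKM over all libraries, and means with IL4 of 1.64 in KO and 0.606 in control cells. Its rise may therefore not be independent of the floor of 0.5 FPKM. Of 19 genes of the TGFβ pathway, a main inducer of collagen genes in fibroblasts, 16 were tested, and with IL4 2 were higher and 2 lower in KO than control cells. Tgfbr2, its type II receptor, was lower in KO cells in all 4 treatments, with differences of -0.62 untreated, -0.66 with DMSO, -1.25 with rosiglitazone and -1.02 with IL4 (adjusted p of 0.0137 or less). Ctgf, a well-known target of the pathway, was higher in untreated KO cells, at a mean of 1.69 against 0.28 rescaled FPKM in control cells, a difference of 1.37 (adjusted p = 0.0394), with overlapping groups.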

How the data were processed

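RNA of thioglycollate-elicited peritoneal macrophages was sequenced from stranded total RNA libraries, per the labels' protocols. The authors deposited FPKM values per gene symbol. Per the submitters' processing notes the genome build was mm9 and the tools were TopHat2, featureCounts and edgeR, with no versions and no role for each. Of 24302 symbols, 25 were dates and were left out, and 11261 with 0.5 FPKM or more in 3 or more libraries were tested.

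Each library was divided by the median ratio of 11022 genes to their geometric means (factors 0.576 to 1.207). Values of log2(rescaled FPKM + 0.5) from the 31 libraries entered 1 fit in limma 3.58.1 (R 4.3.3), in which each of the 8 groups had its own mean and the variance followed the mean level. Tests were two-sided, and p was adjusted over the genes tested by Benjamini and Hochberg. Differences are on that log2 scale, which understates changes of genes near 0.5. The scripts were tested on simulated data. Single values of Col1a2 were tested by exact permutation of libraries. A p-value measures the spread between these libraries.

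Named genes were Col1a2, the 5 most abundant of each tracking class, up to 5 called genes per comparison and direction, and up to 4 per other list, and the text accounts for all 35 genes by ranges. Members, lists and markers were chosen with earlier results of these data known. Every pair of libraries with the same number correlated (r over 0.1) among untreated, DMSO and IL4 libraries of KO cells, and among DMSO, rosiglitazone and IL4 libraries of control cells, but not between control untreated and the other control libraries (lowest r = -0.17) nor for KO rosiglitazone as titled (lowest r = -0.82). A planned test over all genes on means per mouse, conditional on such pairing throughout, was therefore not run, and the means per number of Col1a2 were kept. Protein sequences were not used here. A result for 1 gene of the other lists is not reported here.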

Additional observations from a re-analysis of the deposited data

Results flagged for a closer look

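Among the 35 genes in the 7 groups of 4 libraries, 245 sets of values were examined for a library far from the others, and 10 had a gap to the nearest library beyond the 95% critical value of Dixon's test. Chance alone gives about 1 in 20 such sets. In untreated control cells library 1 stood above the others for Col1a1 (3.7 rescaled FPKM), Col3a1 (6.23), Col6a3 (0.857), Col6a5 (0.079) and Postn (0.568). In control cells with DMSO library 3 stood below the others for Col24a1 (0), Col4a1 (0.219) and Adamts1 (0.454). Lamc1 stood high in KO untreated library 3 (11.1), a library with a low FPKM sum, and in control rosiglitazone library 1 (4.91).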

How the results depend on the processing

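Counts of called genes moved with many choices. KO against control in untreated cells gave 0 calls without rescaling, with no filter, with only the groups compared and without the 3 libraries of lowest sum. KO against control with IL4 gave 2 with a pseudocount of 0.1 or only the groups compared, and 3 with no filter or without those 3 libraries. With DMSO it gave 1 at a pseudocount of 0.1, and with rosiglitazone 1 with only the groups compared. IL4 against untreated gave, in KO cells, 2 at a pseudocount of 0.1, 3 with only the groups compared and 2 without the 3 libraries, and in control cells 3 without rescaling or without those libraries. With the Col1a2 level as a covariate, chosen after seeing the data, the counts were 0 (untreated), 0 (rosiglitazone) and 1 (IL4) for KO against control and 8 for IL4 in KO cells.

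Fits with the replicate number as a block gave more calls. As titled, KO against control gave 19, 10, 6 and 16 in untreated, DMSO, rosiglitazone and IL4 cells. With the KO rosiglitazone libraries numbered 1 higher it gave 23, 13, 19 and 18, and IL4 against untreated 10 in KO cells (7 higher and 3 lower, Lamc1, Nid1 and Fbln2) and 8 in control cells. With the number as a random effect it gave 18, 5, 15 and 15. The shares of all genes called in these fits are not given here. The counts therefore do not show whether matrix genes gained more calls than other genes. A block by number in KO against control joins mice that share only a number. Among the matrix genes described here, none of these fits gave a call between rosiglitazone and DMSO or between DMSO and untreated cells. They also gave these genes no call for a genotype difference in response.

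Leaving out each library in turn gave 0 to 16 (untreated), 0 to 5 (DMSO), 1 to 7 (rosiglitazone) and 1 to 7 (IL4) calls for KO against control, and for IL4 against untreated 2 to 5 in KO and 3 to 6 in control cells. The Col1a2 difference per number stayed between 1.56 and 2.71, and 28 to 29 genes tracked Col1a2. Over 25 single-gene results and 492 settings, 358 kept direction and call, 124 lost the call, 10 gained it and 0 reversed. Fn1 and Col6a5 with IL4 in both genotypes, Mgp with IL4 in control cells and Lox in KO against control IL4 cells kept their call in all 20 settings. Col6a5 had passed the floor only through IL4 libraries and Lox only through KO libraries. The test on means per mouse was not run. The cause of these moves was not tested.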

Other observations

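Krt8 and Krt18, keratins of simple epithelia, stand in the mesothelial list but had an r with Col1a2 of 0.353 and 0.345. Of the other 8 tested genes of that list, Krt19 had 0.496 and Cldn15 0.699, and Upk3b, Upk1b, Lrrn4, Wt1, Bnc1 and Gpm6a had 0.85 to 0.948. With IL4, Krt18 rose by 1.42 in KO cells (mean of 3.44 rescaled FPKM with IL4 against 0.883 untreated, limma adjusted p = 2.69e-05) and by 1.14 in control cells (1.24 against 0.281, adjusted p = 0.000384). Krt8 rose by 1.22 in KO cells (adjusted p = 0.000149) and by 0.85 in control cells (adjusted p = 0.0052). Krt18 was also higher in KO than control cells, untreated (0.84, adjusted p = 0.0285) and with IL4 (1.12, adjusted p = 0.000904).

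Adipoq, which encodes adiponectin, a hormone known from adipocytes, averaged 1.76 rescaled FPKM in KO and 4.29 in control cells with IL4, and 0 in both untreated groups. The sum of 5 adipocyte markers was at most 0.0981 in groups without IL4, and Cfd and Lep were listed at 0 in every library. With IL4 Adipoq was lower in KO than control cells, with a difference of -1.11 (limma adjusted p = 1.65e-06) and no overlap of libraries.

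Of 8 markers of resident large peritoneal macrophages 5 were tested. Gata6, the transcription factor of those cells, had an r of 0.925 with Col1a2 and Serpinb2 of 0.772, whereas Cd93 had 0.0195, Vsig4 -0.36 and Icam2 -0.523. Timd4, Lyve1 and F5 were not tested, with at most 0.116, 0.0539 and 0.177 rescaled FPKM.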
